A study of Mus musculus with 25 samples.

Results

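The genes described are the cadherins, protocadherins and claudins of the mouse pituitary. They are every gene symbol in either expression table that begins with Cdh and a number, with Pcdh, or with Cldn and a number, without Cdh5. This gave 99 genes of 15768, of which 98 are in the long-term table of 15315 genes and 91 in the short-term table of 14007 genes. They are 5 type I cadherins, 11 type II cadherins, Cdh13 and Cdh26, 14 claudins, 12 non-clustered protocadherins, and 55 clustered protocadherins of the alpha (11), beta (22) and gamma (22) clusters. Cdh3, Cdh9, Cldn2, Cldn8, Cldn34c1, Pcdh11x, Pcdh19 and Pcdha1 were listed in the long-term table alone, and Cdh6 in the short-term table alone.

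All mice were Rosa26rtTA Col1a1shRb5-4 animals (shRb mice), in which doxycycline (dox) in the drinking water switches on an shRNA against Rb. The line comes from a single embryonic stem cell clone with a single shRNA, the transactivator is expressed from the Rosa26 locus and so not only in the pituitary, and every mouse here had received dox, so no group without dox is compared. In the long-term experiment, pituitaries were taken after 6 weeks of dox (6w+dox, 3 females), after 12 weeks of dox (12w+dox, 2 females and 2 males), or after 6 weeks of dox and 6 weeks without it (12w-res, 3 females and 2 males). In the short-term experiment, mice had 16 weeks of dox (16w +dox, 3 males) and were then taken off dox for 1 day (1d -dox, 4 females), 3 days (3d -dox, 3 males) or 5 days (5d -dox, 3 females). Sex and time therefore cannot be told apart in 1d -dox or 5d -dox against 16w +dox. The labels give no ages.

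Cadherins hold neighbouring cells together through calcium-dependent contacts, and the classical types are tied to actin by catenins. Claudins form the strands of tight junctions and set which ions and solutes pass between cells. In the clustered protocadherins each variable exon has its own promoter. Alpha and gamma variable exons are spliced to constant exons shared by their cluster, beta genes have no constant exon, and the combination a neuron makes is known as a code for self-recognition. In the pituitary, cadherins and claudins are known from the hormone cells, the folliculostellate cells between them and the vessels.

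Expression is given as FPM, read fragments per gene scaled to a common library size with size factors. The long-term mice had 19066053 to 28968476 reads on genes and the short-term mice 9573101 to 13036900. A gene was called when limma on log2(FPM + 0.5), fitted on all mice of an experiment, gave a Benjamini-Hochberg adjusted p under 0.05 over all genes and an absolute log2 fold change over 1. Members drew 0.0861 to 0.181% of the gene reads of the long-term mice and 0.175 to 0.229% of those of the short-term mice. The targeted gene, Rb1, was 18.2 ± 1.66 FPM in 12w-res (SD, n = 5) against 3.21 ± 0.7 in 12w+dox (n = 4) and 3.16 ± 1.7 in 6w+dox (n = 3). In the short-term groups its means were 4.19 to 5.12 FPM, and it was called in none of those comparisons. The GFP linked to the shRNA fell after withdrawal, from 1247 ± 192 FPM in 16w +dox to 606 ± 199, 122 ± 46.0 and 11.7 ± 3.08 FPM at 1, 3 and 5 days (called at 3 and 5 days). The pituitary hormone precursor Pomc took 12.9 to 43.2% of gene reads in the long-term mice. The 12w+dox mouse 1 stood apart, with 4940 FPM of the lactotroph marker Prl against 214 to 332 in the other 12w+dox mice. So did 12w-res mouse 1, with summed somatotroph markers of 24797 FPM against 6409 to 11648 in the other 12w-res mice and gonadotroph markers of 1897 FPM against 85.7 to 626. Without it 10 members were called higher and 10 lower against 12w+dox, and 18 and 7 against 6w+dox. In whole pituitaries fewer cells of a type and less RNA per cell cannot be told apart.

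Per kilobase of exon not shared with another member, the highest members by the mean of the 3 long-term groups were Cldn3 (84.0 FPM per kb), Cldn9 (35.1), Pcdhgc3 (14), Cdh2 (12.9) and Cldn12 (11.1). By the mean of the 4 short-term groups they were Cldn3 (20.9), Pcdhgc3 (13.5), Cdh2 (5.69), Pcdh17 (4.70) and Cldn9 (4.25). Cldn3 and Cldn9 led in each long-term group, but the third place went to Cdh2 in 6w+dox (13.3 FPM per kb), Pcdhgc3 in 12w+dox (23.3) and Cdh13 in 12w-res (17.3). The libraries of the 2 experiments were made and scaled separately, so the order of the genes within an experiment can be read but the levels across experiments cannot.

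Between 6 and 12 weeks of dox, 32 of 98 members were called, 25 higher and 7 lower, against 7.2% of all 15315 genes called. Higher calls made up 3.15% of all genes and lower calls 4.04%. In 38 members every 12w+dox mouse was above every 6w+dox mouse and in 8 every one was below, against 12.9% and 12.4% of all genes. Most of the members that rose were clustered protocadherins, 23 of 55 with none lower. The 3 claudins and 4 other genes that were lower are described further on. The median log2 fold change was 0.45 over the members and -0.01 over all genes. The 6w+dox mice were all female, and among female mice alone 12 members were called higher and 4 lower.

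**Figure D1:**
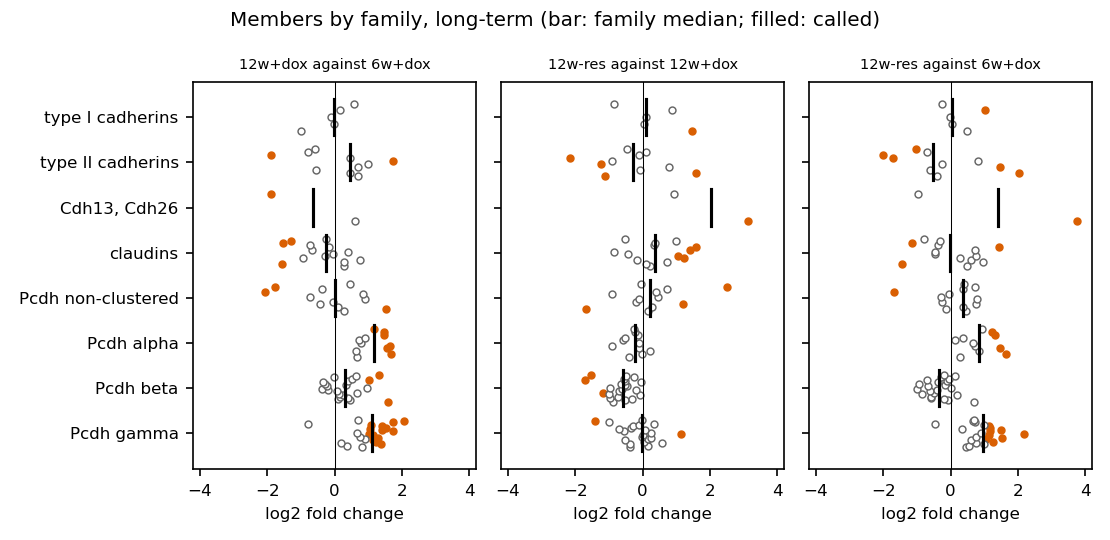
Log2 fold change (x axis) of every member in the 3 long-term comparisons, by family (y axis). Each circle is a gene, filled when called, and the black bar is the family median. In 12w+dox against 6w+dox the alpha and gamma protocadherin medians lie at 1.18 and 1.10 and the claudin median at -0.27.

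Most alpha and gamma genes were higher at 12 weeks than at 6 weeks of dox. All 11 alpha genes had a log2 fold change above 0 (median 1.18), 6 of them were called, and in 10 every 12w+dox mouse was above every 6w+dox mouse. Of the 22 gamma genes 21 were above 0 (median 1.10), and 14 were called. Pcdhgb8 was the exception, at -0.79 (SE 0.48, limma adjusted p = 0.255). The 22 beta genes, which lie between the alpha and gamma clusters on chromosome 18, had a median of 0.30, and 3 of them were called, all higher.

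The 10 alpha genes that could be placed (all but Pcdha10) carry 28.5 to 54.9% of their exonic bases in exons shared with another member, gamma genes 27.8 to 66.8%, and only 2 of the 22 beta genes share any. How reads in the constant exons were assigned is not given in the sources used here. Values of single alpha and gamma genes are therefore uncertain and are not independent of each other, and beta genes are close copies whose reads may be split.

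**Figure D2:**
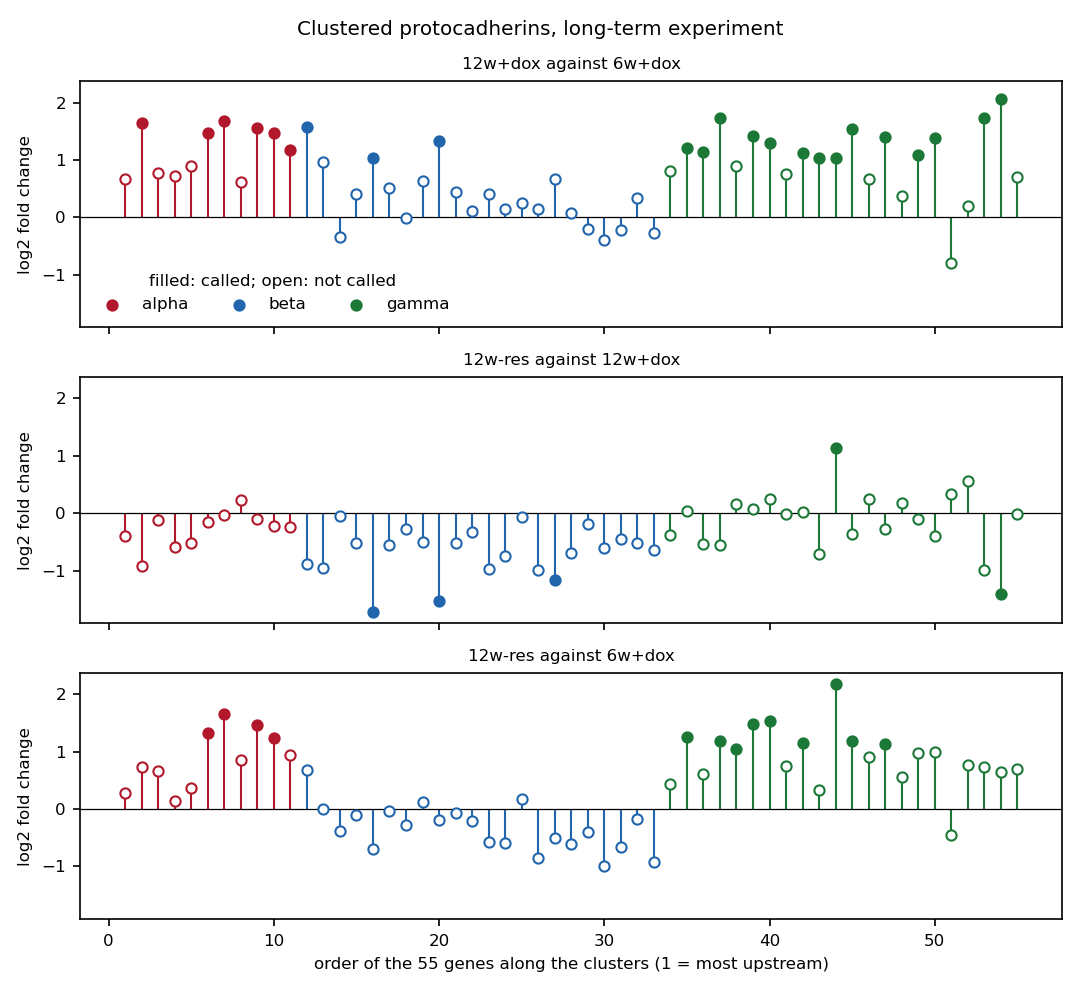
Log2 fold change (y axis) of the 55 clustered protocadherins in their order along the chromosome (x axis, 1 to 55) for the 3 long-term comparisons. Filled circles are called genes. All 11 alpha genes and all gamma genes but Pcdhgb8 lie above 0 in the top and bottom panels, and all 22 beta genes lie below 0 in the middle panel.

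Summed over the 11 alpha genes, the 6w+dox mice gave 3.73, 4.72 and 10.9 FPM. The 12w+dox mice gave 23.1, 21.8, 22.8 and 22.2 FPM, and the 12w-res mice 18.7, 20.1, 17.7, 16.0 and 16.4 FPM. The 3 groups did not overlap, with 12w+dox highest, and the 6w+dox mice spread the most.

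The gamma sum was 43.0, 85.4 and 111.0 FPM in the 6w+dox mice. In 12w+dox it was 205, 219, 188 and 268 FPM, and in 12w-res 152, 155, 138, 144 and 157 FPM. This sum had the same order of groups as alpha, again without overlap. Most gamma genes did not share its difference between 12w+dox and 12w-res. In 12w-res against 12w+dox the median log2 fold change was 0.02 over the 19 Pcdhga and Pcdhgb genes. Over the 3 Pcdhgc genes it was -0.995.

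The beta sum was 166, 149 and 155 FPM in 6w+dox, 180, 202, 214 and 232 FPM in 12w+dox, and 132, 106, 140, 121 and 118 FPM in 12w-res. Here 12w-res was the lowest group, below all 6w+dox mice.

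**Figure D3:**
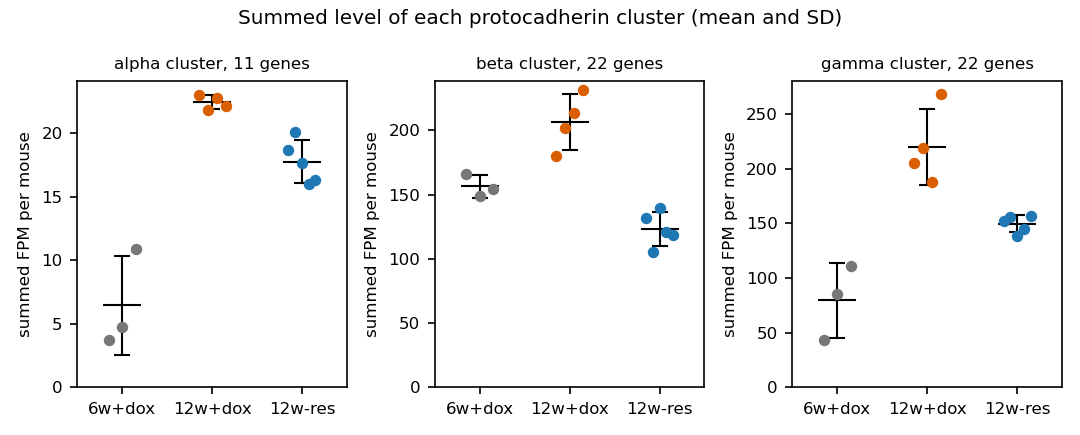
Summed FPM of the alpha, beta and gamma protocadherin genes (y axis) for each long-term mouse (points) in 6w+dox, 12w+dox and 12w-res (x axis), with mean and SD. The 12w-res mice lie between the other groups for alpha and gamma and below both for beta.

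In this comparison the clustered gene with the largest fold change was a C-type gamma gene, of a kind that many neurons express without random choice. Pcdhgc4, the isoform known for neuronal survival, was 5.30, 10.4 and 12.7 FPM in 6w+dox and 39.2, 37.5, 32.2 and 47.8 FPM in 12w+dox. Every 12w+dox mouse was above every 6w+dox mouse, with a log2 fold change of 2.06 (SE 0.23, limma adjusted p = 0.000175). Pcdhgc3, the highest protocadherin per kilobase, was 13.4, 28.6 and 31.5 FPM in 6w+dox and 63.2, 75.1, 75.0 and 101 FPM in 12w+dox. Its groups did not overlap either (log2 fold change 1.73, SE 0.24, limma adjusted p = 0.00048). The third C-type gamma gene, Pcdhgc5, was at 0.71 (adjusted p = 0.151).

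Among the other gamma genes the 12 called were Pcdhgb1 (1.74), Pcdhgb5 (1.53), Pcdhgb2 (1.41), Pcdhgb6 (1.41), Pcdhga11 (1.38), Pcdhga5 (1.29), Pcdhga2 (1.22), Pcdhga3 (1.14), Pcdhga7 (1.13), Pcdhgb7 (1.08), Pcdhgb4 (1.04) and Pcdhga8 (1.03), each as a log2 fold change. Pcdhga8 lost this call in 5 of 7 fits that left out a mouse, and Pcdhga3 and Pcdhgb4 in 3 of 7. Neither Pcdhga8 nor Pcdhga3 was called by edgeR. The called alpha genes were Pcdha10 (1.68), Pcdha2 (1.64), Pcdha12 (1.56), Pcdha9 (1.47), Pcdhac1 (1.46) and Pcdhac2 (1.18). Levels were low, so that Pcdha10 was 0.408, 0.267 and 0.952 FPM in 6w+dox and 2.76, 3.79, 1.32 and 3.71 FPM in 12w+dox. Its groups were separate, but by a small margin at the low end.

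The beta genes that rose were Pcdhb1 (1.57), Pcdhb9 (1.33) and Pcdhb5 (1.03). Pcdhb9 was 13, 14.8 and 7.74 FPM in 6w+dox and 20.7, 24.2, 38.2 and 39.9 FPM in 12w+dox. Pcdhb5 was 8.33, 5.08 and 7.37 FPM in 6w+dox and 10.8, 16.1, 17.6 and 13.9 FPM in 12w+dox. Both were separated between the groups, while 19 of the 22 beta genes were not called. The Pcdhb5 call was lost in 3 of 7 fits that left out a mouse.

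These calls depended on the 6w+dox mice. Without 6w+dox mouse 3, which had the highest alpha and gamma sums of its group, 33 members were called higher, and without mouse 1 there were 18. Lower calls were 4 without 6w+dox mouse 2. Of the 32 calls, 18 were kept whichever mouse was left out. Other cell markers moved in the same comparison. Summed somatotroph markers ran from 45927 to 80250 FPM in 6w+dox and from 934 to 7554 in 12w+dox, and the 4 neural lobe markers (Rax, Avp, Oxt and Col25a1) from 44.5 to 130 and from 4.05 to 13.4 FPM. All 3 somatotroph and all 4 neural lobe markers were called lower, while of the melanotroph and corticotroph list 1 of 6, Pax7, was called higher. Also called lower were the lactotroph marker Prl (-4.32) and the thyrotroph marker Tshb (-2.87). So were 3 of 7 endothelial, 3 of 6 stem and folliculostellate, 2 of 6 pericyte and fibroblast, and 2 of 4 oligodendrocyte and Schwann markers. Of the 4 gonadotroph and the 4 macrophage and leukocyte markers 0 were called. The part of these cells in the protocadherin values was not tested.

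Genes that regulate protocadherin promoter choice gave no call. None of the 12 listed (Ctcf, the cohesin genes Rad21, Smc1a, Smc3, Stag1 and Stag2, Nipbl, Wapl, Wiz, Smchd1, Dnmt3b and Setdb1) was called in any long-term comparison. Their median log2 fold change was 0.09 in 12w+dox against 6w+dox and -0.51 in 12w-res against 12w+dox. Unadjusted p under 0.05 was found for 2, 9 and 7 of them in 12w+dox against 6w+dox, 12w-res against 12w+dox and 12w-res against 6w+dox, and edgeR and DESeq2 also called 0. Over all 15315 genes 5585, 7249 and 6740 had such a p.

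After 6 weeks without dox, 18 of 98 members were called against 12w+dox, 10 higher and 8 lower, against 11.3% of all genes. All genes had 6.24% called higher and 5.04% lower. Groups were separate in 10 members that were higher and 23 that were lower, against 17.1% and 17.4% of all genes. The members that rose were 4 claudins, 3 cadherins, Pcdh8, Pcdh12 and Pcdhga8, and those that fell were 3 type II cadherins, Pcdh10, 3 beta protocadherins and Pcdhgc4. The all-gene median moved by -0.61 when mice were scaled by their total gene reads instead of the size factors. In that scaling 3 members were called higher and 33 lower, so the balance of directions depends on it, and family medians are also given relative to all genes. The 3 higher were Cdh13, Pcdh8 and Cldn5. Cdh1, Cdh11, Cldn2, Cldn4, Cldn23, Pcdh12 and Pcdhga8 lost their calls there.

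All 22 beta genes had a log2 fold change below 0, with a median of -0.59, or -0.56 relative to all genes under scaling by total reads. In 12 of them every 12w-res mouse was below every 12w+dox mouse. Only Pcdhb5 (-1.72), Pcdhb9 (-1.53) and Pcdhb16 (-1.17) passed the fold limit. Pcdhb5 was 3.80, 3.12, 5.6, 3.6 and 4.31 FPM in 12w-res, all below the 10.8 to 17.6 FPM of 12w+dox (SE 0.20, limma adjusted p = 2.18e-05). Pcdhb16 was 7.90, 4.23, 5.69, 5.37 and 7.51 FPM in 12w-res and 11.3, 13.3, 14.7 and 18 FPM in 12w+dox, also without overlap.

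The alpha and gamma medians were -0.22 and -0.01, with no alpha gene called. Pcdhgc4 fell to 15.6, 16.3, 13.6, 12.8 and 13.5 FPM, below all 12w+dox mice (log2 fold change -1.41, SE 0.20, limma adjusted p = 0.000125). Pcdhgc3 was at -0.995 (adjusted p = 0.00204), just short of the fold limit, with 33.6 to 43.0 FPM against 63.2 to 101 FPM. Pcdhga8 went the other way at 5.67, 5.44, 6.83, 3.84 and 6.96 FPM, against 2.76, 1.63, 1.6 and 3.6 FPM in 12w+dox (1.14, SE 0.31, limma adjusted p = 0.00947). It was the one clustered gene called higher, and its groups did not overlap.

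Set against 6w+dox, the 12w-res mice had 24 of 98 members called, 18 higher and 6 lower, with 11.6% of all genes called (5.81% higher and 5.82% lower). Groups were separate in 28 members that were higher and 14 that were lower, against 16.9% and 15.9% of all genes. Alpha genes had 4 calls and gamma genes 9, all higher, with medians of 0.85 and 0.95, and beta genes had none (median -0.34). Pcdhga8 (2.17), Pcdha10 (1.65), Pcdhga5 (1.54), Pcdhgb2 (1.49) and Pcdha12 (1.45) led, followed by Pcdha9 (1.32), Pcdhga2 (1.25), Pcdhac1 (1.24), Pcdhgb5 (1.18), Pcdhgb1 (1.18), Pcdhga7 (1.15), Pcdhgb6 (1.13) and Pcdhga4 (1.05). Pcdhgc4 and Pcdhgc3 stood at 0.65 and 0.74 and were not called. This comparison and the preceding ones share their mice, so their calls are not independent. Scaling by total reads gave 10 members higher and 11 lower here, with an all-gene median of -0.33. Without 6w+dox mouse 3 there were 26 higher, and without mouse 1 there were 13. Of the 24 calls, 13 were kept whichever mouse was left out. Pcdhgb5 lost its call in 3 of 8 such fits and was not called by edgeR, and Pcdhga4 lost its call in 2 of 8.

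Of the non-clustered protocadherins, Pcdh8 and Pcdh10 moved in opposite directions. Pcdh8, known as arcadlin, is induced by activity at synapses. It was 16.2, 13.6 and 8.86 FPM in 6w+dox, 3.11, 3.61, 2.53 and 4.05 FPM in 12w+dox, and 20.9, 16.2, 21.9, 26.0 and 21.6 FPM in 12w-res. The 12w+dox mice were below both other groups without overlap. It fell by 1.78 on the log2 scale between 6 and 12 weeks of dox (SE 0.22, limma adjusted p = 0.000248) and was higher by 2.51 in 12w-res than in 12w+dox (SE 0.19, limma adjusted p = 3.54e-07), the smallest adjusted p of any member.

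Pcdh10, which binds the WAVE actin regulators, was 10.5, 14.2 and 14.5 FPM in 6w+dox, 19.3, 47.7, 51.1 and 46.1 FPM in 12w+dox, and 4.21, 16.9, 14.6, 16.7 and 12.2 FPM in 12w-res. The 12w+dox group was above both others, mouse 1 being the nearest to them. It rose by 1.54 with longer dox (SE 0.41, limma adjusted p = 0.0183) and fell by 1.67 in the 12w-res mice (SE 0.36, limma adjusted p = 0.00264). Its rise was not called without 6w+dox mouse 1 or mouse 2.

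Pcdh20 was lower in 12w+dox (-2.08, limma adjusted p = 0.0165) and in 12w-res (-1.69, adjusted p = 0.0232) than in 6w+dox. Neither was called by edgeR, the first was lost without 6w+dox mouse 2, and the second was lost in 3 of 8 fits that left out a mouse (12w-res mouse 3 or 5, or 6w+dox mouse 2). Pcdh12, a protocadherin of endothelial cells, was 2.27, 0.933, 0.893 and 2.35 FPM in 12w+dox and 4.06, 5.28, 4.96, 4.55 and 2.16 FPM in 12w-res. One 12w-res mouse overlapped the 12w+dox range, and the log2 fold change was 1.19 (SE 0.29, limma adjusted p = 0.00543). Endothelial markers moved with it: 6 of 7 were called higher, and their sum ran from 63.8 to 132 FPM in 12w+dox and from 204 to 277 FPM in 12w-res. The part of these cells in the Pcdh12 value was not tested.

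Pcdh17, which acts at presynaptic terminals, averaged 44.5 ± 2.97 FPM in 6w+dox, 85.0 ± 21.2 in 12w+dox and 77.1 ± 12.0 in 12w-res (SD). Its groups at 6 and 12 weeks of dox did not overlap, but the log2 fold change of 0.89 was under the fold limit (adjusted p = 0.00488). Pcdh19, the gene of a female-limited epilepsy, averaged 7.13 ± 2.83, 12.9 ± 3.34 and 6.66 ± 1.52 FPM. Pcdh9 was 17.2 ± 4.28, 23.8 ± 5.72 and 22.4 ± 2.12 FPM, and Pcdh7 was 4.91 ± 2.33, 3.78 ± 1.86 and 6.31 ± 1.93 FPM. None of these 4 was called in a long-term comparison.

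The cadherin with the largest difference was Cdh13. Cdh13 (T-cadherin) is held in the membrane by a lipid anchor and has no catenin-binding tail. It was 10.2, 15.9 and 16.1 FPM in 6w+dox, 60.9, 31.6, 11.2 and 9.55 FPM in 12w+dox, and 142, 198, 180, 246 and 206 FPM in 12w-res. Every 12w-res mouse was above every mouse on dox. The log2 fold change was 3.13 against 12w+dox (SE 0.41, limma adjusted p = 5.99e-05) and 3.75 against 6w+dox (SE 0.45, limma adjusted p = 3.02e-05).

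Within 12w+dox the females had the higher Cdh13 values, 60.9 and 31.6 FPM, and the males 11.2 and 9.55 FPM. The difference of 12w-res from 12w+dox was 2.24 in females and 3.96 in males on the log2 scale. The interaction with sex had a limma adjusted p of 0.449, the smallest of the 98 members. Of these 0 passed an adjusted p of 0.05, and of all 15315 genes 13 did. An unadjusted limma p under 0.05 was found for 8 members, and was not counted over all genes.

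Cdh11, a cadherin of mesenchymal cells, was 3.55, 4.45 and 5.46 FPM in 6w+dox, 9.42, 3.70, 3.97 and 10.4 FPM in 12w+dox, and 22.9, 16.4, 20.3, 17.7 and 22.7 FPM in 12w-res. The 12w-res mice were separate from both groups on dox. It rose by 1.60 against 12w+dox (SE 0.27, limma adjusted p = 0.000492) and by 2.05 against 6w+dox (SE 0.30, limma adjusted p = 0.000157). Pericyte and fibroblast markers moved in the same direction as Cdh11 and Cdh13. All 6 (Pdgfrb, Rgs5, Acta2, Dcn, Lum and Col3a1) were called higher in 12w-res than in 12w+dox, and their sum ran from 141 to 347 FPM in 12w+dox, from 589 to 739 in 12w-res and from 176 to 258 in 6w+dox. Their part in the Cdh11 and Cdh13 values was not tested.

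Cdh24, a type II cadherin that binds catenins, was the member that fell most. It was 11.4, 11.4 and 21.6 FPM in 6w+dox, 11.1, 21.8, 25.7 and 23.8 FPM in 12w+dox, and 5.20, 3.86, 5.01, 2.18 and 4.53 FPM in 12w-res. All 12w-res mice were below all mice on dox, by -2.16 against 12w+dox (SE 0.29, limma adjusted p = 6.4e-05) and -1.70 against 6w+dox (SE 0.31, limma adjusted p = 0.000945). Cdh10 (-1.11) and Cdh20 (-1.24), which mark regions of the developing brain, were also lower in 12w-res than in 12w+dox, with no overlap of the groups. Cdh20 was at low levels, 0 to 0.423 FPM against 0.593 to 1.37 FPM.

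Cdh22, first described in pituitary and brain, was 11.7, 9.22 and 7.87 FPM in 6w+dox, 18.4, 33.3, 39.8 and 44.7 FPM in 12w+dox, and 17.5, 21.3, 13.7, 17.5 and 16.1 FPM in 12w-res. It was the one cadherin called higher in 12w+dox than in 6w+dox, and these groups did not overlap (1.72, SE 0.25, limma adjusted p = 0.000727). The 12w-res mice were at -0.90 against 12w+dox, where 1 of them overlapped the lowest 12w+dox mouse. Since Rb holds E2F factors in check, the members' promoters were searched for the E2F words TTTCCCGC, TTTGGCGC, TTTCGCGC and TTTGCCGC on both strands. Promoters of 32 members were in the RefSeq table (GRCm38.p6, 39 starts, each 250 bases before to 50 after a listed start). Cdh22 alone had a match, 2.56% of the 39 starts, against 2.26% of all 32851 starts. Its promoter, chr2:165234688-165234987 on the minus strand, is shown with the word in capitals, beginning 238 bases before the listed start. That start lies inside the gene as RefSeq places it, with its outer end at 165234924. A match is a description of the letters only.
Cdh22: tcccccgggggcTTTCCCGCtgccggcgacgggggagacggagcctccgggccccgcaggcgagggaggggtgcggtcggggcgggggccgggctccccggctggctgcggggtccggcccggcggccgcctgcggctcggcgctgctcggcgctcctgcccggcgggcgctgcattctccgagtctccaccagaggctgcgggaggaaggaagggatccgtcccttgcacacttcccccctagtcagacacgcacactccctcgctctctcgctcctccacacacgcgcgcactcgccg

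Cdh7 (-1.90 in 12w+dox, -2.02 in 12w-res) and Cdh26 (-1.90 in 12w+dox) were lower than in 6w+dox. Cdh26, found in epithelia, was 5.01, 7.04 and 8.20 FPM in 6w+dox and 2.16, 1.28, 1.08 and 1.26 FPM in 12w+dox, without overlap (SE 0.25, limma adjusted p = 0.000316). In 12w-res it was 2.22 to 3.91 FPM, between the groups on dox. Cdh18 rose by 1.48 in 12w-res against 6w+dox (SE 0.23, limma adjusted p = 0.000233), and Cdh9 (-1.04) was lower at levels under 1 FPM. The Cdh9 call was lost in 3 of 8 fits that left out a mouse.

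Among the type I cadherins, Cdh1 (E-cadherin, the epithelial cadherin) was 9.55, 8.55 and 7.41 FPM in 6w+dox, 8.23, 2.94, 2.62 and 3.94 FPM in 12w+dox, and 11.5, 6.08, 16.1, 15.6 and 13.7 FPM in 12w-res. The overlap between 12w+dox and 12w-res came from 12w+dox mouse 1 and 12w-res mouse 2. The log2 fold change was 1.46 (SE 0.31, limma adjusted p = 0.00228), and it was -0.99 in 12w+dox against 6w+dox (adjusted p = 0.0583). Cdh3 (P-cadherin), a near neighbour of Cdh1 on chromosome 8, was 1.03 higher in 12w-res than in 6w+dox (SE 0.23, limma adjusted p = 0.00386), at 0.687 to 1.38 against 0.267 to 0.414 FPM. The Cdh3 call was lost in 3 of 8 fits that left out a mouse. Cdh2 (N-cadherin) averaged 107 ± 27.9 FPM in 6w+dox, 98.8 ± 16.7 in 12w+dox and 107 ± 23.3 in 12w-res. Cdh4 (R-cadherin) averaged 11.2 ± 2.31, 17.3 ± 4.67 and 9.44 ± 2.08 FPM, and Cdh15 (M-cadherin of muscle) 1.01 ± 0.628, 0.931 ± 0.324 and 1.07 ± 0.609 FPM. These 3 gave no call.

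**Figure D4:**
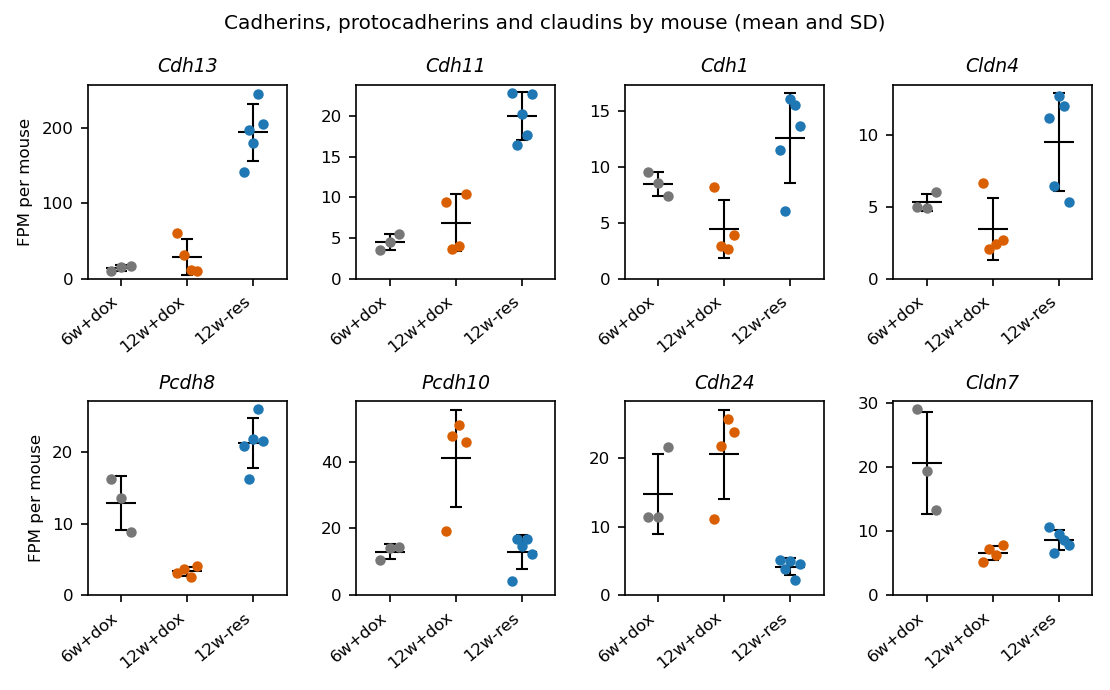
FPM (y axis) of 8 members in each long-term mouse (points) by group (x axis), with mean and SD. Cdh13 and Cdh11 are highest in all 5 12w-res mice, Pcdh8 is lowest and Pcdh10 highest in 12w+dox, and Cdh24 is lowest in 12w-res.

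Claudins were lower in 3 of 14 cases and higher in 0 between 6 and 12 weeks of dox, and higher in 4 and lower in 0 between 12w+dox and 12w-res. Over all genes 4.04% were called lower in the first comparison and 6.24% higher in the second. The claudin medians of -0.27 and 0.36 changed sign (0.05 and -0.26) under scaling by total reads, but relative to all genes they were -0.24 and 0.35 there. Cldn7, a claudin of epithelial barriers, was 29.1, 19.4 and 13.3 FPM in 6w+dox, 5.13, 7.17, 6.31 and 7.74 FPM in 12w+dox, and 10.7, 6.55, 9.47, 8.56 and 7.79 FPM in 12w-res. Both later groups were below all 6w+dox mice (-1.52, SE 0.24, limma adjusted p = 0.00112; -1.16, SE 0.23, limma adjusted p = 0.00177). Cldn10, a channel-forming claudin, was 19.7, 7.71 and 8.44 FPM in 6w+dox and 2.9 to 3.8 FPM in 12w+dox, and it stayed at 3.01 to 5.93 FPM in 12w-res. The log2 fold changes from 6w+dox were -1.56 (SE 0.30, limma adjusted p = 0.0033) and -1.45 (SE 0.29, limma adjusted p = 0.00154), without overlap. Cldn8 was lower in 12w+dox (-1.31, limma adjusted p = 0.0353), with overlap, and lost its call in 5 of 7 fits that left out a mouse.

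Summed stem and folliculostellate markers ran from 787 to 1152 FPM in 6w+dox, from 568 to 694 in 12w+dox and from 631 to 758 in 12w-res. Of the 6, 3 were called lower in 12w+dox than in 6w+dox. In 12w-res against 12w+dox 2 were called higher and 0 lower, with a median log2 fold change of 0.91. Against 6w+dox, 1 was called lower in 12w-res. The part of these cells in the claudin values was not tested.

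Cldn4, another epithelial claudin, was 5.01, 4.94 and 6.00 FPM in 6w+dox, 6.66, 2.04, 2.40 and 2.71 FPM in 12w+dox, and 11.2, 6.45, 12.7, 12.0 and 5.30 FPM in 12w-res. The 12w+dox mouse 1 lay inside the range of the 12w-res mice, and the other 3 were below it. Its log2 fold change in 12w-res against 12w+dox was 1.40 (SE 0.31, limma adjusted p = 0.00321). Cldn3, whose gene lies 39.3 kb from Cldn4, averaged 122 ± 52.4 FPM in 6w+dox, 113 ± 27.9 in 12w+dox and 82.2 ± 9.85 in 12w-res. In the comparison in which Cldn4 rose, the log2 fold change of Cldn3 was -0.43 (limma adjusted p = 0.15). In the same comparison Snai1 (1.19, limma adjusted p = 0.000617) and Twist1 (1.08, limma adjusted p = 0.00133) rose. These were the 2 calls among 16 listed regulators of cadherin transcription and shedding, and both are known as repressors of Cdh1 through E-boxes.

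The E-box word CACCTG, searched on both strands, was present in 9 of the 39 member starts, 23.1%, and in 20.2% of all 32851 starts. It occurred in Cdh7, Cldn3, Cldn4, Cldn6, Cldn7, Pcdh7 and Pcdh15. The Cldn4, Cldn3 and Cldn7 promoters are shown because the 3 genes had different patterns across the groups and all hold the word, with every copy in capitals. Cldn4 is chr5:134946885-134947184 on the minus strand, Cldn3 chr5:134985964-134986263 on the plus strand, and Cldn7 chr11:69965171-69965470 on the plus strand, the second of its 2 listed starts. The Cdh1 and Cdh2 promoters are not analysed here.
Cldn4: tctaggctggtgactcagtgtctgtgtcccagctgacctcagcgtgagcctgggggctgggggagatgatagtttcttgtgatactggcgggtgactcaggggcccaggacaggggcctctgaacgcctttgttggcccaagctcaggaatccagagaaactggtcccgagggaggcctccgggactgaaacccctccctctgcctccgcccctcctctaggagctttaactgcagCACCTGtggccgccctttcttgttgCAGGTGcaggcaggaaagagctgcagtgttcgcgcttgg
Cldn3: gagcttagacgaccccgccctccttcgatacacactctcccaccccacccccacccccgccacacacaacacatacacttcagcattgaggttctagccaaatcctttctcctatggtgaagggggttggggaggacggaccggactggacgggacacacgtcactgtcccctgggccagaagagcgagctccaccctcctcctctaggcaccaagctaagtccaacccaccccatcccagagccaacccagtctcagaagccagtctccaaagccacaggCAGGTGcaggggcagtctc
Cldn7: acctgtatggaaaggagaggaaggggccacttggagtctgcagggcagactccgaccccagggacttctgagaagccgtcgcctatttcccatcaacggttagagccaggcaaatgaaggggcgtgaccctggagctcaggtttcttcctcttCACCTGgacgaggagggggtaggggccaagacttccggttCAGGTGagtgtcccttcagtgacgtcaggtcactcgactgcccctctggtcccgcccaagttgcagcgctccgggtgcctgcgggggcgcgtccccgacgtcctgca

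Cldn5, the claudin of brain and vessel endothelium, was 2.79, 1.69 and 1.16 FPM in 6w+dox, 1.99, 1.22, 1.17 and 1.95 FPM in 12w+dox, and 6.81, 5.49, 5.37, 7.03 and 4.09 FPM in 12w-res. The 12w-res mice were above both groups on dox, by 1.59 (SE 0.24, limma adjusted p = 0.000161) and 1.43 (SE 0.26, limma adjusted p = 0.000816). Of the endothelial markers, 182 to 238 FPM summed in 6w+dox, 6 of 7 were called higher in 12w-res than in 12w+dox. Against 6w+dox 0 of 7 were called, with a median log2 fold change of 0.52 (-0.57 to 0.93). The part of these cells in the Cldn5 values was not tested. Cldn2, a cation and water channel, was 6.86, 2.75, 3.96, 3.84 and 3.09 FPM in 12w-res and 0.955 to 2.09 FPM in 12w+dox (1.22, limma adjusted p = 0.00424). Cldn23 was 12.9 to 17.7 FPM against 6.42 to 8.22 FPM (1.04, limma adjusted p = 0.000164). Neither overlapped between these groups.

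Cldn9 and Cldn12 were abundant and gave no call. Cldn9 averaged 61.5 ± 5.71 FPM in 6w+dox, 53.0 ± 14.9 in 12w+dox and 37.4 ± 15.2 in 12w-res, with 1 12w-res mouse at 62.1 FPM and the other 4 at 26.1 to 42.3 FPM. Cldn12 averaged 33.4 ± 8.96, 56.9 ± 12.0 and 50.2 ± 4.86 FPM, and every 12w+dox mouse was above every 6w+dox mouse (0.77, limma adjusted p = 0.00831, under the fold limit). Cldn11, the claudin of myelin, averaged 2.13 ± 0.0954, 2.77 ± 0.96 and 4.93 ± 1.76 FPM, and Cldn1 0.788 ± 0.267, 1.05 ± 0.21 and 1.29 ± 0.229 FPM.

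Of 15 catenins and adherens junction genes tested, 0 were called by limma, edgeR or DESeq2 in the 3 long-term comparisons, and 5, 8 and 6 had an unadjusted p under 0.05 in 12w+dox against 6w+dox, 12w-res against 12w+dox and 12w-res against 6w+dox, beside 5585, 7249 and 6740 of all 15315 genes. Of 16 tight junction partners, Cgn (cingulin) was lower in 12w-res than in 12w+dox (-1.09, limma adjusted p = 0.0012), and Jam2 was higher in 12w-res than in 6w+dox (1.24, limma adjusted p = 5e-05). Among 14 large and atypical cadherins, Cdhr1 was higher (1.37) and Fat3 (-1.80), Celsr1 (-1.52) and Fat4 (-1.24) lower in 12w+dox than in 6w+dox, while Fat3 (-1.51) and Clstn2 (-1.31) were lower in 12w-res than in 6w+dox.

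In the days after dox was withdrawn from mice treated for 16 weeks, limma called 0 of 91 members in all 4 comparisons. The all-gene shares were 0.043% at 1 day, 0.129% at 3 days and 0.193% at 5 days against 16w +dox, and 0.0143% for 5 days against 1 day. Members with an unadjusted p under 0.05 numbered 12, 15, 8 and 7, and over all genes 13.1%, 16.6%, 13.5% and 6.33% had such a p. The edgeR test called none of the members, and DESeq2 called 1 in each comparison with 16w +dox (Pcdh12 lower at 1 day, Cdh10 higher at 3 days, Pcdh20 lower at 5 days) and 0 at 5 days against 1 day. A test on simulated data recovered 52 of 100 genes changed by 2-fold and 96 of 100 changed by 3-fold in 1d -dox against 16w +dox. Recovery there was counted by adjusted p alone, without the fold limit, and every gene was given the same relative spread between mice. It therefore does not give the share of such genes that the calls used here would find.

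**Figure D5:**
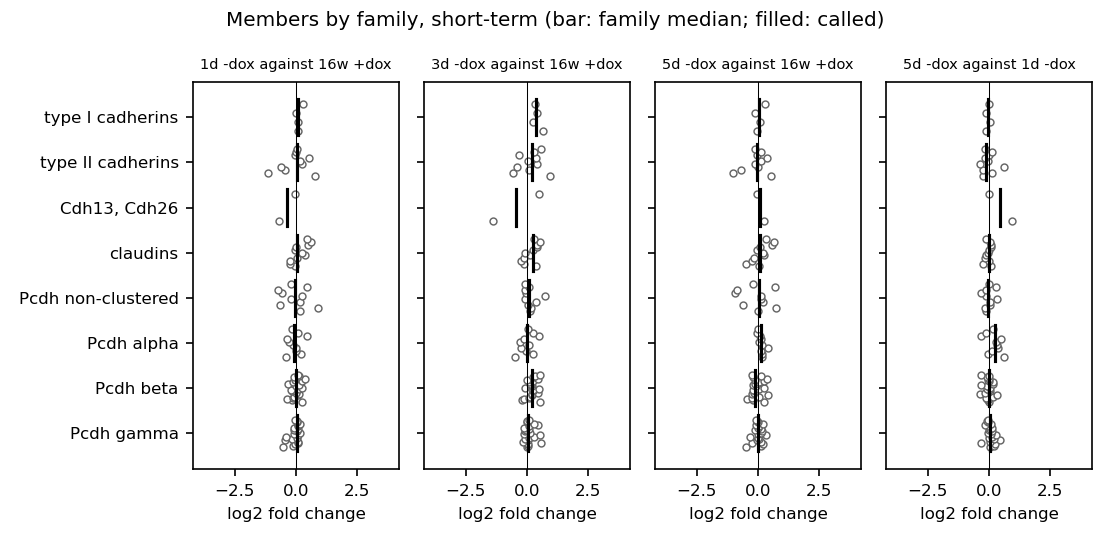
Log2 fold change (x axis) of every member in the 4 short-term comparisons, by family (y axis), on the same scale as the long-term plot. Open circles are genes not called and the bar is the family median, which lies between -0.13 and 0.36 in families of 4 or more genes.

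The alpha, beta and gamma sums showed these means over the days. The alpha sum averaged 19.5 ± 1.08 FPM in 16w +dox (SD, n = 3), 19.3 ± 0.428 at 1 day (n = 4), 19.7 ± 1.12 at 3 days (n = 3) and 21.6 ± 1.78 at 5 days (n = 3). The gamma sum averaged 135 ± 6.29, 135 ± 6.38, 141 ± 11 and 135 ± 7.78 FPM, and the beta sum 64.5 ± 6.09, 64.8 ± 7.22, 77.9 ± 11.8 and 62.9 ± 4.07 FPM. Pcdhgc4 was at 0.05, -0.01 and -0.06 on the log2 scale after 1, 3 and 5 days, with standard errors of 0.10 to 0.11.

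The members with the smallest unadjusted p were as follows. Cdh10 was 4.67, 3.61 and 5.67 FPM in 16w +dox and 10.1, 10.7 and 7.43 FPM at 3 days, both groups male and without overlap (0.95, SE 0.23, limma adjusted p = 0.0825). At 1 day it was 8.38, 6.32, 8.33 and 10.6 FPM (0.79, limma adjusted p = 0.135). Pcdh12 was 0.874, 0.909 and 0.766 FPM in 16w +dox and 0.361, 0.275, 0.449 and 0.304 FPM at 1 day (-0.67, limma adjusted p = 0.124), and it was 0.253 to 0.49 FPM at 5 days (-0.62, adjusted p = 0.146). The low Pcdh12 groups were the female ones, and at 3 days, in males, it was 1.22, 0.571 and 0.988 FPM. Summed endothelial markers were 16.5 to 21.7 FPM at 1 day, 12.4 to 17.2 at 5 days, 27.0 to 48.4 at 3 days and 28.8 to 48.8 in 16w +dox. Their part in the Pcdh12 values was not tested.

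Cdh13, the member highest above its long-term controls in 12w-res, was 16.4, 29.6 and 21.1 FPM in 16w +dox and 8.91, 12.0 and 4.80 FPM at 3 days (-1.38, SE 0.40, limma adjusted p = 0.126). These groups did not overlap. At 5 days it was 22.0, 20.8 and 37.3 FPM. Pcdhb9 (0.52, adjusted p = 0.0843) at 3 days, Cldn9 (0.46, adjusted p = 0.199) at 1 day, and Pcdhb14 (0.40, adjusted p = 0.244) and Pcdh8 (0.71, adjusted p = 0.302) at 5 days completed the 3 smallest p in each comparison with 16w +dox. Between 1 and 5 days, both female groups, Pcdha10 (0.59, adjusted p = 0.445), Pcdh17 (0.31, adjusted p = 0.623) and Pcdhb9 (-0.35, adjusted p = 0.655) had the smallest p. The 16w +dox mouse 2 held 12.5 FPM of Cdh11 and 7.08 FPM of Pcdh7, against 1.57 and 2.25 FPM and 2.27 and 2.14 FPM in the other 16w +dox mice.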

How the data were processed

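Pituitary RNA of 12 long-term mice (poly(A) enrichment) and 13 short-term mice (rRNA depletion) was sequenced. The deposited signal values are FPM that the authors scaled with DESeq2 size factors, after mapping to mm10 with STAR. Per the methods, a gene was kept if a condition had over 50% of its samples at 10 reads or above. The counting tool and strand setting are not given in the sources used here. The steps in the values returned whole reads for 100% of the values within 0.1 read, with 19066053 to 28968476 gene reads per long-term mouse and 9573101 to 13036900 per short-term mouse. In the short-term data, 4 lines that name no gene held 68.8 to 75.0% of reads and were left out.

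The filter was applied again, which left 13958 short-term genes. Groups were compared with limma (3.58.1, R 4.3.3) on log2(FPM + 0.5), so that fold changes of low genes are understated, and with edgeR (4.0.16) and DESeq2 (1.42.0) on the recovered reads as alternatives. Simulated data of 15315 genes were tested for 12w+dox against 6w+dox, with the same relative spread for every gene. By adjusted p under 0.05 and without the fold limit, limma recovered 66 of 100 genes changed by 2-fold and 94 of 100 changed by 3-fold. In that count 11 unchanged genes also passed. The recovery by the calls used here, with the fold limit, was not measured. Replicates were separate mice by the labels.

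The members and gene lists were chosen with earlier results of these data known. By the rule set for naming, named genes were the members called in a comparison (at most 12 per direction) and 21 with known roles (Cdh23 is not in the tables). The rule added the 5 highest per kilobase, and the 3 smallest p where none was called. Called members beyond the 12 in a direction are also named, outside this rule and after their values were seen. The single gene values given for Pcdhgb8, Pcdhgc5, Pcdh20 and Pcdh7 in the short-term groups were chosen after they were seen. Exons came from GENCODE vM21 and gene positions and promoters from RefSeq GRCm38.p6.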

Additional observations from a re-analysis of the deposited data

Results flagged for a closer look

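Chance alone marks about 1 in 20 groups by the test used here, a gap between the highest or lowest mouse and the rest that is wide for the group's range. It was applied to the 61 named members in groups of 4 or more mice, and marked 16 of 178 (8.99%). No cause was tested.

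In 12w+dox, mouse 1 was high for Cldn4 (6.66 FPM, others 2.04 to 2.71) and low for Pcdh10 (19.3 FPM, others 46.1 to 51.1). Mouse 3 was high for Cldn12 (74.6 FPM, others 48.0 to 52.5) and low for Pcdhga4 (2.34 FPM, others 4.72 to 5.02) and Pcdhgb7 (5.82 FPM, others 7.78 to 7.89).

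In 12w-res, mouse 1 was high for Cldn10 (5.93 FPM, others 3.01 to 3.48), Pcdh20 (5.04 FPM, others 0.884 to 1.69) and Pcdhgb1 (7.28 FPM, others 6.05 to 6.39). Mouse 2 was low for Cdh3 (0.687 FPM, others 1.27 to 1.38), mouse 3 was high for Pcdhb14 (21.4 FPM, others 13.7 to 15.1), mouse 4 was high for Pcdhgb5 (7.50 FPM, others 3.28 to 4.31), and mouse 5 was low for Pcdhgb4 (1.88 FPM, others 3.17 to 3.54).

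At 1d -dox, Cdh24 was high in mouse 3 (6.76 FPM, others 4.49 to 4.58), Cldn3 was low in mouse 2 (28.4 FPM, others 29.2 to 29.3), Pcdh8 was high in mouse 2 (2.75 FPM, others 1.47 to 1.55), and Pcdhb5 was high in mouse 4 (3.51 FPM, others 2.96 to 3.02).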

How the results depend on the processing

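No called value changed sign under the alternatives that were run. Values that were not called did, and the claudin median in 12w-res against 12w+dox ranged from -0.26 to 0.39 and the type I cadherin median from -0.37 to 0.28, the lowest values under scaling by total reads. In 12w+dox against 6w+dox, female mice alone gave 12 members higher and 4 lower, and a minimum of 10 reads in every sample gave 4 lower. In 12w-res against 12w+dox, scaling by total reads gave 3 higher and 33 lower, edgeR gave 14 lower, DESeq2 15 lower, and no minimum fold change 27 lower. In 12w-res against 6w+dox, scaling by total reads gave 10 higher and 11 lower, no minimum fold change 32 higher and 14 lower, and 10 reads in every sample 3 lower. DESeq2 called 1 lower at 1 day, 1 higher at 3 days and 1 lower at 5 days against 16w +dox. Leaving out 1 mouse at a time gave 18 to 33 higher and 4 to 10 lower in 12w+dox against 6w+dox, 9 to 13 higher and 8 to 13 lower in 12w-res against 12w+dox (13 without 12w+dox mouse 1), 13 to 26 higher and 5 to 7 lower in 12w-res against 6w+dox, and 0 in every short-term fit. The causes were not tested, but female mice alone leave 2 12w+dox mice. With the replicate number as a block, 22 members were higher and 6 lower in 12w+dox against 6w+dox, 10 and 9 in 12w-res against 12w+dox, 15 and 8 in 12w-res against 6w+dox, and 0 in the short-term comparisons. Deviations of same-numbered mice correlated between -0.21 and 0.24, so the numbers do not pair the mice. Members under 1 FPM rest on few reads.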

Other observations

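Member genes as a group took a larger share of the gene reads in 12w+dox, 0.143 to 0.181%, than in 6w+dox, 0.0861 to 0.110%, or in 12w-res, 0.0924 to 0.0961%. The ranges of 12w+dox and of the other groups did not overlap. The Pomc share was 13.6 to 32.2% in 6w+dox, 12.9 to 23.0% in 12w+dox and 39.1 to 43.2% in 12w-res, and shares of gene reads move with it.

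Within 6w+dox, the alpha and gamma protocadherin sums ran opposite to Pomc across the 3 mice. Mouse 1 had 32.2% Pomc reads with 3.73 FPM of alpha and 43.0 FPM of gamma, mouse 2 had 20% with 4.72 and 85.4 FPM, and mouse 3 had 13.6% with 10.9 and 111.0 FPM. In 12w-res, with 39.1 to 43.2% Pomc reads, the alpha sums of 16.0 to 20.1 FPM were above those of every 6w+dox mouse. With 3 mice the relation within 6w+dox cannot be tested, and it was noticed after the values were seen.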
